A study of Mus musculus with 4 samples.

Results

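ATAC-seq marks open chromatin with the Tn5 transposase, and 4 libraries of mouse chondrocytes, the cells of cartilage, were examined for sites called open at the later of the passages sampled and not at the earlier. The cells came from knee cartilage of newborn C57BL/6 mice, aged 0 to 4 days, and were grown on plastic in DMEM/F12 with 10% fetal bovine serum. Passage 0 (P0) cells had been in culture for under 24 h. Passage 8 (P8) cells descended from such cells, passed on each time their number had doubled, so that passage and time in culture cannot be told apart. Each passage had 2 libraries, called P0-A and P0-B, P8-A and P8-B here because the peak names do not give the replicate number. The labels do not say whether these came from separate animals or cultures, so the spread between them may be technical. Neither treatment nor genotype differed between the passages.

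Overlapping peaks of the 4 libraries were merged, which gave 170325 sites on chromosomes 1 to 19 and X. Of these, 61080 were intergenic, meaning outside every protein-coding gene and more than 1 kb but at most 250 kb from the nearest gene end. A P8 only intergenic site was one with a peak in both P8 libraries and in neither P0 library, and 1363 sites met this rule. They were 2.23% of the intergenic sites, while 17.5% (10693 sites) had a peak in both P0 libraries and in no P8 library. Genic sites included, 1.82% of all merged sites showed the P8 only pattern. The sites were therefore selected on measured values, and their presence at P8 and absence at P0 is their definition and not a result. A peak that was not called is not closed chromatin, only a signal under the limit of the peak caller at that depth. In a bulk library, sites open in fewer cells and sites less open in each cell cannot be told apart.

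Chondrocytes passaged in monolayer lose cartilage traits and take on those of fibroblasts, a change called dedifferentiation. Open intergenic sites include enhancers, which hold transcription factors and act on genes that can lie far away, often past the nearest gene. Regulation from such sites is more specific to a cell type or state than that from promoters, which stay open in most cells. The nearest gene is named below as a landmark, and no target was measured.

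No genome sequence was used here, but RefSeq windows around gene starts (250 bases before to 50 after, GRCm38.p6) overlapped 10 of the 1363 sites, all at starts of long non-coding RNA genes. The sequences below are the parts of 6 of these sites that lie in such a window, 5′ to 3′ on the strand of the RNA, chosen after values were seen as 4 of those that lie whole in their windows and 2 that are repeats. They are examples and do not stand for the other sites. Capitals mark matches on either strand to 3 motifs of those searched, namely GGAATG for TEAD factors, TTGGCA for NFI factors and ACAANG for SOX factors.
Gm30903, chr1:157594743-157594855, minus strand: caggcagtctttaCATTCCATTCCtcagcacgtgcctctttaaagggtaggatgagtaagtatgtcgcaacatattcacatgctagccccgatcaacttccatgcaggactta
Gm30228, chr10:27809695-27809829, minus strand: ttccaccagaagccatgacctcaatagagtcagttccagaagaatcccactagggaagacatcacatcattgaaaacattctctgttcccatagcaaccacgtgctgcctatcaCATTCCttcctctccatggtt
Gm35922, chr19:28759799-28759962, plus strand: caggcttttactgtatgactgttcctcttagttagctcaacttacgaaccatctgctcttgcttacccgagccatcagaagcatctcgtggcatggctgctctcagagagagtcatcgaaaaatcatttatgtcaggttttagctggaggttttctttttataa
Gm42004, chr5:113812214-113812393, plus strand: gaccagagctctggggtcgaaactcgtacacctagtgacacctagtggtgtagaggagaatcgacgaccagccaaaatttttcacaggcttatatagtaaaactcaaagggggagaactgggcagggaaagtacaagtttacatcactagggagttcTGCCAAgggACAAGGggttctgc
Gm41149, chr14:48857157-48857288, plus strand: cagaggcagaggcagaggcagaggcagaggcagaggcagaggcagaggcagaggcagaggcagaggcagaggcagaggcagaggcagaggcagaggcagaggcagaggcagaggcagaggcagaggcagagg
Gm40055, chr3:58031664-58031773, minus strand: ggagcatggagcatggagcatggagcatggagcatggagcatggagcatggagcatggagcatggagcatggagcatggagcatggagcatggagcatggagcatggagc

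The last pair are perfect tandem repeats over their whole printed length, of a 6-base unit for 132 bases at Gm41149 and of a 7-base unit for 110 bases at Gm40055. Tandem repeats of at least 100 bases, with units of up to 10 bases, filled part of 7 of 11574 lncRNA windows (0.0605%) on these chromosomes. Such a repeat stood in 2 of the 10 windows that held a P8 only intergenic site, in 0 of 173 windows at P0 only intergenic sites and in 2 of 634 windows at intergenic sites with peaks in all 4 libraries. The pileup, the number of overlapping sequence tags at the highest point of a peak, was 12 tags in P8-A and 10 in P8-B at the Gm41149 site and 10 and 7 tags at the Gm40055 site. The other 4 printed sites had 8 to 10 tags in P8-A and 6 to 11 in P8-B.

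The motif GGAATG, bound by TEAD factors, was in 3 of the 10 windows against 16.6% of all lncRNA windows of the same length, the NFI motif in 3 against 15.97% and the SOX motif in 6 against 46.9%. In all, 11 motifs were searched, on both strands. Of the other 8, RUNX (TGTGGT) was in 1 window against 20.1%, CTCF (CANNAGNGG) in 2 against 18.9% and the E-box (CAGCTG) in 2 against 17.6%. The AP-1 motif TGANTCA was in 0 of the 10 against 9.31% and C/EBP (TTGCNNAA) in 0 against 11.9%, and CRE/ATF (TGACGTCA), NF-κB (GGGANTTTC) and ETS (ACCGGAAGT), each in under 2% of lncRNA windows, were in 0. In the part of each window that lay inside the site, the TEAD motif was found in 2, NFI in 3, SOX in 1 and each of the other 8 in 0. With 10 windows these are descriptions of single sequences. Gene starts were rare among the sites in any case. Windows were touched by 0.734% of the P8 only intergenic sites (95% Wilson interval 0.399 to 1.35%), by 1.52% of the P0 only (1.31 to 1.77%) and by 3.22% of those open in all 4 libraries (2.97 to 3.49%). Wilson intervals here cover counting error only, and sites are not replicates of a passage. Annotated lncRNA genes overlapped 197 of the 1363 sites, or 14.5% (12.7 to 16.4%), against 19.3% (18.5 to 20.03%) and 21.2% (20.6 to 21.9%) in the other 2 classes.

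A pair of the sites lay beside microRNA genes well known in stressed and growing cells, within 2 kb of the hairpin. The mature RNAs are printed with the seed, bases 2 to 8, which pairs with targets, in capitals.
mmu-miR-21a-5p, chr11:86584120-86584141, minus strand: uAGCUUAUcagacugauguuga
mmu-miR-212-3p, chr11:75173443-75173464, plus strand: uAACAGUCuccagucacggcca
mmu-miR-132-3p, chr11:75173723-75173744, plus strand: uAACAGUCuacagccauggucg

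Here miR-212-3p and miR-132-3p share the seed AACAGUC, and their hairpins lie 821 and 1115 bp from the site chr11:75172378-75172567, whose nearest coding gene was the repressor Hic1. Its pileup was 23 tags in P8-A and 24 in P8-B. The site chr11:86582649-86582762 lay 1305 bp from the hairpin of miR-21a, past the end of the autophagy gene Vmp1, with 30 tags in each P8 library. Both had a P0 peak close by, at 454 bp and 81 bp.

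The 1363 sites were weak and short peaks. The pileup in P8-A ran from 6 to 48 tags with a median of 10, and in P8-B from 6 to 48 tags with a median of 10. The fold enrichment over the local background had a median of 4.91 in P8-A and 4.88 in P8-B, and the peaks were 127 and 126 bp wide at the median. Intergenic sites with peaks in all 4 libraries had medians of 14 and 16 tags, 6.43-fold and 7.07-fold, and 226 and 266 bp in the same P8 libraries. P0 only intergenic sites had medians of 13 and 11 tags in P0-A and P0-B. Most of the P8 only intergenic sites thus lay close to the lower limit of 6 tags, and 90 of them reached 15 tags in both libraries, 26 reached 20 and 10 reached 25.

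**Figure D1:**
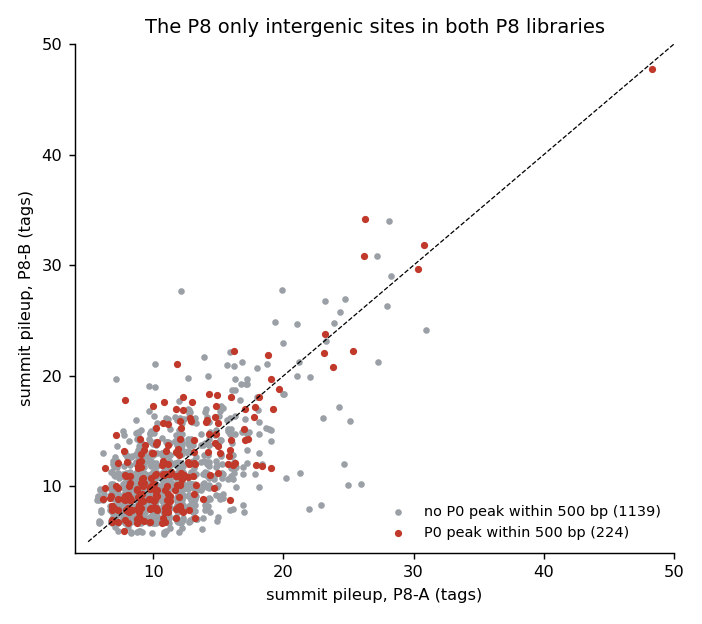
Each point is 1 of the 1363 P8 only intergenic sites, with its summit pileup in tags in P8-A (x axis) and P8-B (y axis), shifted at random by under 0.5 tags so that points do not hide each other. Red points have a P0 peak within 500 bp (224 sites), grey points have none (1139), and the dashed line marks equal values. Most points crowd below 15 tags, and 10 sites reach 25 tags in both libraries.

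Their order of strength was shared only in part by the P8 libraries. Across the 1363 sites the pileups in the P8 libraries had a Spearman correlation of 0.46, against 0.82 across the 17507 sites with peaks in all 4 libraries. The range of values is narrower in the first set, and all points of a set share the same libraries. The highest points of the peaks in P8-A and P8-B were 36 bp apart at the median, and 861 of the 1363 pairs (63.2%) lay within 50 bp. Few intergenic sites that lacked a P0 peak were seen in both P8 libraries. Of 8565 such sites, 1363 had a peak in both, or 15.9% (15.2 to 16.7%), while 3956 had one in P8-A alone and 3246 in P8-B alone. Of 24877 intergenic sites that lacked a P8 peak, 43.0% (42.4 to 43.6%) had a peak in both P0 libraries. The sites seen in 1 P8 library were weaker still, with medians of 9 tags and widths of 93 and 90 bp.

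**Figure D2:**
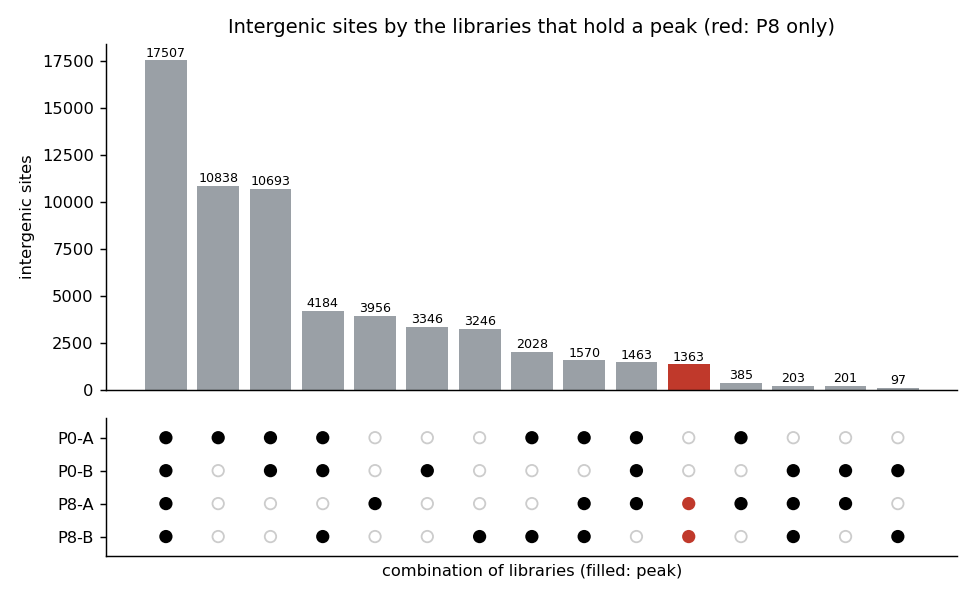
Bars give the number of intergenic sites for each combination of libraries that holds a peak, and the filled circles below each bar name those libraries. The red bar is the 1363 P8 only sites, smaller than the 3956 and 3246 sites of a single P8 library and than the 10693 sites of both P0 libraries.

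Judged by their local background, the libraries differed in depth, which sets how faint a peak can be called. The lowest local background, which rises with depth, was 1.42 and 1.18 tags in P0-A and P0-B and 1.02 and 0.979 tags in P8-A and P8-B. By this value both P8 libraries were the shallower, and depth itself was not measured. When peaks were kept only if their pileup, rescaled to the shallowest library, would still be called, 1458 sites met the rule and included all 1363. P8-B was the shallowest and was left as it was, P8-A was lowered little, and losing P0 peaks cannot take a site out. That the 1363 were kept was therefore largely fixed in advance. The count depended on P0-A, P8-A and P8-B. Without P0-A 2957 sites met the rule, without P8-A 4756 and without P8-B 5467.

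Values next to the limits of the rule were these. The site nearest a gene lay 1010 bp from Itih1, at chr14:30944299-30944602, with 9 and 12 tags in P8-A and P8-B. Just outside was chr11:120344578-120344687, 1000 bp from the actin gene Actg1, with 22 and 24 tags. Just past the upper limit was chr13:16607265-16607377, 250095 bp from Sugct, with 7 and 6 tags. The weakest peak counted in P8-B was that near Kcnip4 (−log10 p of 3.42). Outside by a single faint P0 peak was chr13:3495838-3496003 near Gdi2, where P0-A had 6 tags (−log10 p of 3.18) against 9 and 10 tags at P8.

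The nearest P0 peak was 4538 bp away at the median (quartiles 1120 and 15119 bp), and 224 sites, or 16.4% (14.6 to 18.5%), had one within 500 bp. A further 112 sites had none within 50 kb, and these were faint, with medians of 9 and 9 tags and at most 18 and 14. The 23 sites with a local background above 5 tags in both P8 libraries were a set chosen after values were seen. The region around them held many tags, and 11 of the 23 had a P0 peak within 500 bp, against 213 of the other 1340. Their fold enrichment was low, for example 2.66 in P8-A and 2.76 in P8-B at the site near Fos.

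The genes nearest these sites on high background were of several kinds, Fcgr3, Vmp1 and Hic1 among them, and those described here were picked after values were seen. The Fos site, chr12:85478673-85479106, lay 1399 bp past the end of the immediate early gene Fos and had 27 tags in P8-A and 31 in P8-B over backgrounds of 9.51 and 10.6 tags. Other sites of the set were near Ier2, an immediate early gene (26 and 31 tags, 1652 bp away), Amotl2, an inhibitor and target of YAP (26 and 34 tags, 1964 bp), and Sgk1, a serum- and glucocorticoid-regulated kinase (20 and 28 tags, 1817 bp). Id2, an inhibitor of bHLH factors, had a pair at 1332 and 1638 bp with 25 and 27 tags and with 23 and 27 tags. Odc1, the first enzyme of polyamine synthesis, had one at 1619 bp (17 and 21 tags) and one at 2050 bp (24 and 21 tags). Lmna, which encodes the nuclear lamins A and C, had one at 3181 bp with 21 and 25 tags.

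The ends of Fos, Sgk1 and Ier2 were open in all 4 libraries. The highest peak within 1 kb of an end of Fos had 48 and 34 tags in P0-A and P0-B and 36 and 39 tags in P8-A and P8-B. Rescaled to the shallowest library by the lowest local background, these were 33.2 and 28.1 against 34.5 and 39 tags, so the passages overlapped as deposited and not when rescaled. Sgk1 had 43 and 30 tags at P0 and 41 and 54 tags at P8, and rescaled 29.7 and 24.8 against 39.3 and 54. Ier2 had 52 and 43 tags at P0 and 38 and 39 tags at P8, and rescaled 36.0 and 35.5 against 36.4 and 39, so its order turned with the scaling. The direction of Fos turned as well, and no order at these ends was read from pileups alone. The strongest P8 only intergenic site by pileup, with 48 tags in each P8 library, was chr1:171073584-171073819, 7669 bp from the Fc receptor gene Fcgr3. Its backgrounds were 18.1 and 19.2 tags, and a P0 peak lay 98 bp away.

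Ranked by mean fold enrichment in both P8 libraries, the leading sites were others, and only 1 of the 12 highest was also among the 12 highest by pileup. The first was chr15:81266059-81266356, 27095 bp past the end of Mchr1, the receptor of melanin-concentrating hormone, with 31 tags in P8-A and 24 in P8-B (11.4-fold and 8.50-fold). The nearest P0 peak was 1035 bp away. The site near Atxn1l, which encodes a partner of the repressor Capicua, had 19 and 20 tags, and the site near Tmco3 had 20 and 18 tags. These 3 were high in both libraries.

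The libraries did not rank the 12 alike. The site near C2cd4b had 25 tags in P8-A and 12 in P8-B, that near the chemokine receptor gene Ccr1l1 26 and 10, and that near the mRNA export gene Alyref2 25 and 10. The sites near Spon1, which encodes the matrix protein F-spondin, Tob1, a brake on proliferation, and Medag had 16 tags each in P8-A and 19, 21 and 19 in P8-B. The sites near Rab11a, a GTPase of recycling endosomes, and Alg10b, an enzyme of N-glycan synthesis, had 16 and 18 tags and 15 and 17 tags. The site 5590 bp from Tulp1, at chr17:28370806-28371050, had 21 and 20 tags, and its other neighbour, 27703 bp away, was Fkbp5, a co-chaperone of the glucocorticoid receptor. Of the 12 sites, the 3 near C2cd4b, Ccr1l1 and Alyref2 therefore rested mainly on P8-A.

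Joined where gaps were at most 50 kb, the 1363 sites formed 1220 groups, of which 1101 held a single site, 98 a pair, 19 a triple, 1 group 4 sites and 1 group 5. The largest lay beside Tead1, which encodes a transcription factor that the growth regulators YAP and TAZ bind to reach DNA. Its 5 sites lay within chr7:112637280-112639033, a stretch of 1754 bp, 40323 to 41903 bp from the gene. Their neighbour on the other side, Parva, was 45592 to 47146 bp away, so Tead1 was nearest by a small margin. In P8-A they had from 10 to 12 tags and in P8-B from 9 to 10, a level series of faint peaks rather than 1 strong one. The nearest P0 peak, in P0-A, lay 2447 bp before the stretch, and the nearest of P0-B 6851 bp after it. P8-A had a further peak 29 bp past the group that P8-B lacked. A sixth site, chr7:112917965-112918130, lay 11181 bp past the other end of Tead1 with 10 and 12 tags.

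**Figure D3:**
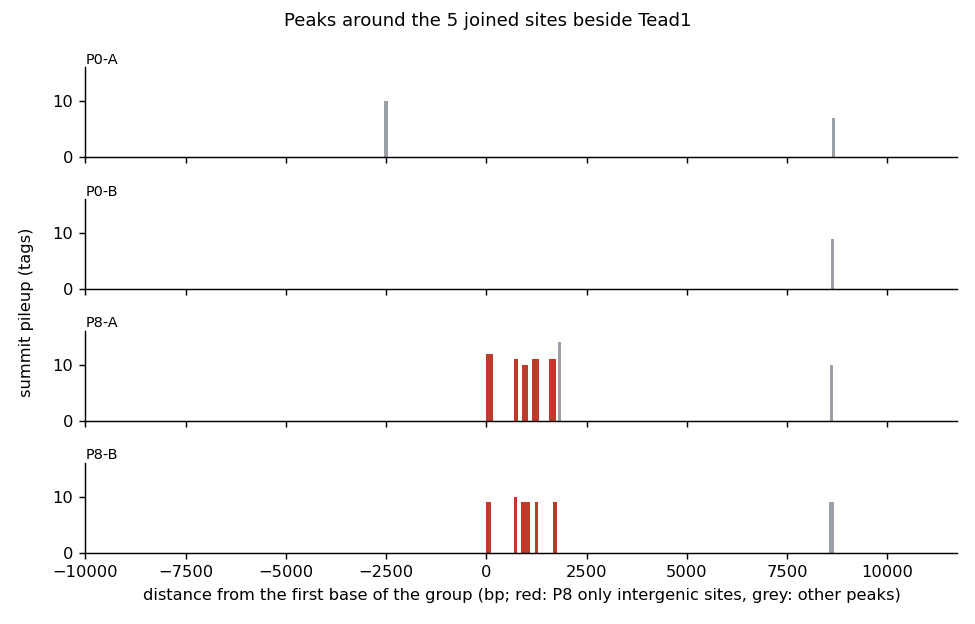
Peaks of each library around the 5 joined sites near Tead1, with the distance from the first base of the group in bp on the x axis and the summit pileup in tags as bar height. The P8 only intergenic sites (red) carry 10 to 12 tags in P8-A and 9 to 10 in P8-B, and both P0 panels are empty over the 1754 bp of the group.

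Tead1 was the nearest gene of 6 P8 only intergenic sites, of 0 P0 only and of 2 with peaks in all 4 libraries. Its own ends had 39 and 34 tags at P0 and 24 and 21 tags at P8, so the gene's ends had the lower pileup in the passage where the distal sites were called. Rescaled to the shallowest library they had 26.97 and 28.1 tags against 23.0 and 21, the same order. Of 15108 protein-coding genes with an end peak in any library, 89.2% had both P8 pileups below both P0 as deposited and 73.7% once rescaled, so Tead1 was like most genes in this. Both P8 above both P0 held for 0.576% as deposited and 2.81% rescaled. The rule that set which genes are named took in 3 more genes with 4 sites each. Kcne2, a potassium channel subunit with no peak at its ends in any library, had 4 sites with 8 to 13 tags in P8-A and 8 to 11 in P8-B, and was also nearest to 9 P0 only sites. Zfp521, a zinc finger factor of mesenchymal progenitors, had 4 and was nearest to 4 P0 only sites. The 4 sites nearest 9530057J20Rik had 15 to 23 tags in P8-A and 11 to 20 in P8-B, at 114558 to 199310 bp. Their local backgrounds were high, 2.64 to 6.84 tags in P8-A and 2.20 to 5.63 in P8-B. The mean fold enrichment of these 4 was 2.85 to 4.38.

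Groups like that of Tead1, with at least 3 sites in under 2 kb, numbered 7 and held 23 of the sites, a set described after it was seen. The 3 sites near the synaptic gene Synpr (span 1218 bp) had 9 to 16 tags in P8-A and 9 to 11 in P8-B, and the nearest P0 peak was 10257 bp away. The 3 near Gm11487 (span 1130 bp) had 14 to 18 tags in P8-A and 10 to 12 in P8-B, and the nearest P0 peak was 148869 bp away. The groups near Thnsl2, Insig2, Cops8 and Fam180a had P0 peaks at 129, 212, 10 and 60 bp, so 4 of the 7 had a P0 peak within 500 bp. Wider groups spanned 75716 bp with 3 sites between Atp1b3 and Rnf7, 73982 bp with 3 sites around Mchr1 and Mrtfa, and 69122 bp with 3 sites beside the kinase gene Camk1g.

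In all, 1169 of the 21631 protein-coding genes were nearest to at least 1 of the sites, 1007 of them to exactly 1, 136 to 2, 22 to 3, 3 to 4 and 1 to 6. Of the 1169 genes, 686 were also nearest to a P0 only intergenic site, which is 58.7% of them and 12.8% of the 5349 nearest genes of P0 only sites. Of all protein-coding genes, 24.7% were nearest to a P0 only intergenic site and 5.404% to a P8 only one. The sites lay 32860 bp from a gene end at the median, against 31290 bp for P0 only and 24832 bp for intergenic sites with peaks in all 4 libraries. More than 100 kb from any gene lay 22.0% of them (19.9 to 24.3%), against 19.5% (18.8 to 20.3%) and 15.3% (14.8 to 15.8%). Where a strand was given for the nearest gene, 552 of 1028 sites lay upstream of it, or 53.7% (50.6 to 56.7%), close to 51.6% (50.5 to 52.6%) for P0 only sites.

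Gene lists with known roles were compared by the share of P8 only sites among all intergenic sites nearest to a list's genes, to be read against the 2.23% of all intergenic sites. The lists, like the sites, were chosen with results of these data known. The intervals of the 19 lists are not corrected for their number, so some can miss 2.23% by counting error alone. For the actomyosin and YAP list the share was 5.71% (2.92 to 10.9%), 8 of 140 sites at 3 of 21 genes (5.404% of all protein-coding genes had a site), and 6 of the 8 were those of Tead1. The others were Mrtfa, the actin-regulated partner of SRF (chr15:81192375-81192603, 18 and 21 tags, 1639 bp away), and Amotl2. The actin and contractile genes of the list had none. Of the 6 sites of Tead1, 5 lay within 1754 bp, and the interval counts them as separate sites. These 5 lay nearly as close to Parva, so the share rests on a small difference in distance.

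For chemokines and inflammatory cytokines the share was 4.15% (2.12 to 7.96%), 8 of 193 sites at 7 of 27 genes. Cxcl12, a chemokine of stromal cells, had 2 sites with 9 and 11 tags and with 9 and 12 tags. The site of Ptgs2, the inducible cyclooxygenase, lay 22504 bp away with 8 and 10 tags and a P0 peak 29 bp off, and the ends of Ptgs2 had 49 and 38 tags at P0 and 55 and 52 tags at P8. Both values at P8, from the shallower libraries, were above both at P0, as in 0.576% of genes with an end peak. Tnfaip3 and Nfkb1, a brake on NF-κB and a subunit of it, had 1 site each, with 13 and 9 tags and with 8 and 10 tags.

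Growth factors and receptors had 3.59% (1.83 to 6.92%), 8 of 223 sites at 7 of 24 genes. Vegfa, the factor that draws blood vessels, had 2, of which chr17:46036476-46036725 had 16 and 20 tags, 4099 bp from the gene and 2342 bp from a P0 peak. The sites of Igfbp5, a binding protein of insulin-like growth factors, the growth factor Igf1 and the ErbB ligand Nrg1 had 8 and 13 tags, 7 and 11 tags and 12 and 8 tags. Cell adhesion and guidance genes had 2.83% (1.44 to 5.48%), with 2 sites for the guidance ligand Slit3 and 1 each for the cadherin Cdh11, for Ncam1 and for the ephrin receptor Epha3. Limb and position factors had 2.72% (1.49 to 4.94%), 10 of 367 sites at 6 of 28 genes. Osr1, a factor of limb mesenchyme, had 3 sites with 8 to 10 tags in P8-A and 9 to 11 in P8-B. The limb factors Tbx3 and Tbx18 had 2 sites each and Dlx6 had 1, and none of these 5 sites exceeded 13 tags in P8-A or 15 in P8-B.

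Cartilage lists had shares under 2.23% with intervals that included it. Cartilage matrix genes had 1 of 127 sites, or 0.787% (0.139 to 4.33%), and it belonged to the collagen gene Col11a1, 77852 bp away with 13 and 17 tags. Chondrocyte factors had 3 of 262, or 1.15% (0.390 to 3.31%), 1 each for Sox5, Sox6 and Trps1, with 6 to 9 tags in either library. Fibroblast matrix genes, which rise in textbook accounts of dedifferentiation, lay lower, with 2 of 328, or 0.610% (0.167 to 2.20%). These were 185221 bp from Dcn and 4229 bp from the collagen cross-linking enzyme Loxl2. The Wnt list had 1 of 251, or 0.398% (0.0704 to 2.22%), near Wnt16. At fibroblast matrix genes 132 intergenic sites had peaks in all 4 libraries and 37 were P0 only.

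The intervals of most other lists included 2.23%. AP-1 and ATF factors had 1 of 150 (Fos) and TGF-β and BMP genes 4 of 298. The latter were nearest to Ltbp1 (28163 bp), Inhba (144898 bp), Fst (167193 bp) and Gdf10 (60416 bp). Mesenchymal factors had 7 of 364, among them 2 nearest to Ebf1, at 167142 and 221706 bp. Foxf1 (124870 bp), Twist2 (69507 bp) and Meis1 (247799 bp) had 1 each. Proteases and inhibitors had 2 of 101, one of them near the aggrecanase Adamts5, and adipogenic factors 2 of 100, near Klf15 with 17 and 19 tags and near Per3 with 8 and 8 tags. Redox genes had 2 of 99, of which the site of the thioredoxin reductase Txnrd1 had 17 and 19 tags, 16173 bp away. Endothelial genes had 2 of 70, at 25787 bp from Flt1 and 108467 bp from Cdh5. Neural genes had the highest share, 6.56% (2.58 to 15.7%), above 2.23% but from 4 of 61 sites, none above 10 tags. Among them were sites 54134 and 61627 bp from Neurod1 and 194451 bp from Sox2. Macrophage and blood genes had 0 of 26 (0 to 12.9%), and skeletal muscle genes 0 of 11 (0 to 25.9%).

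**Figure D4:**
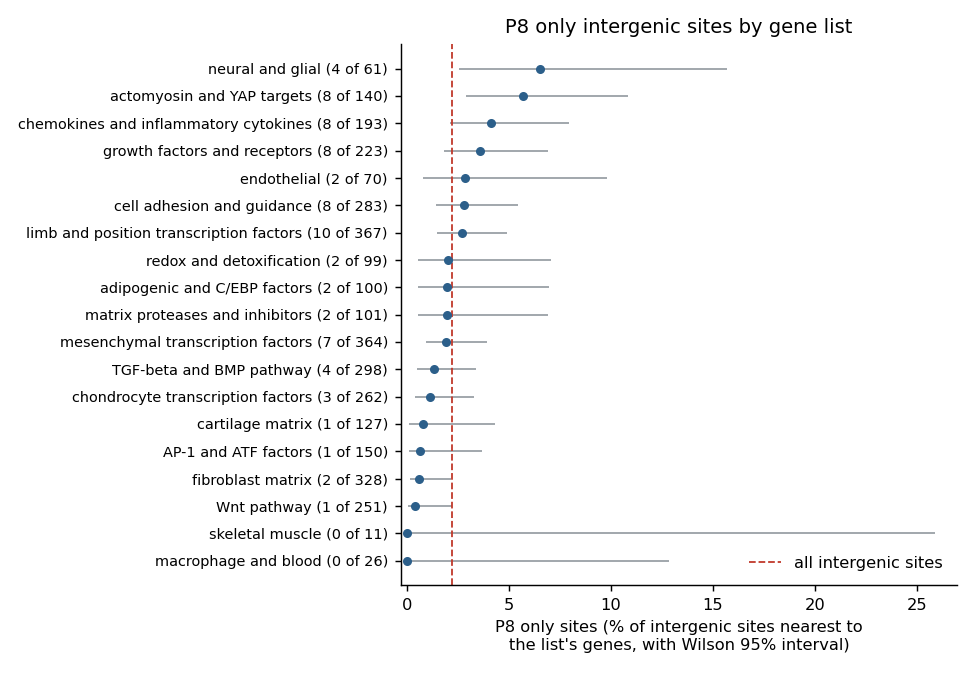
For each gene list, the share of intergenic sites nearest to its genes that were P8 only (points, in percent) with the Wilson 95% interval (lines), the counts in parentheses and the share among all intergenic sites (2.23%, dashed). The actomyosin and YAP list, with 6 of its 8 sites near Tead1, and the neural list alone have whole intervals above the dashed line. The interval of the first counts the 5 Tead1 sites within 1754 bp as separate. The intervals of the 19 lists are not corrected for their number. The points of 5 more lists lie above the line with intervals that cross it. The Wnt and fibroblast matrix lists lie lowest among lists with any site, with whole intervals just below the line.

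The labelled cell type was checked at the ends of marker genes. All 15 chondrocyte markers had a peak at an end in both P0 libraries and 13 in each P8 library, with summed pileups of 797 and 738 tags at P0 and 292 and 303 tags at P8. Col2a1, the most abundant collagen of cartilage, had 93 and 90 tags at P0 and 34 and 41 tags at P8. Fibroblast markers had peaks at 7, 7, 6 and 5 of 7 genes in P0-A, P0-B, P8-A and P8-B, with summed pileups of 186, 157, 108 and 116 tags. Of the 5 macrophage and blood markers, Ptprc, Csf1r and Adgre1 had no peak in any library, and the list summed to 69 and 57 tags at P0 and 21 and 23 at P8, of which Spi1 gave 43 and 32 at P0 and all at P8. Of the 4 endothelial markers Pecam1 and Cdh5 had no peak in any library, and the sums were 32 and 26 tags at P0 and 18 and 21 at P8. Muscle sums were 59, 69, 31 and 26 tags, led by Ckm with 26, 41, 22 and 18, and Myog had no P8 peak. Neural sums were 70, 52, 29 and 25 tags, led by Snap25 with 29, 26, 20 and 18, and Neurod1 had no peak. None of these lists had a higher sum at P8 than at P0, as deposited or rescaled to the shallowest library, where the fibroblast sums were 128.6 and 129.8 tags at P0 and 103.4 and 116 at P8. The 7 fibroblast markers did not move as one. Pdgfra had 25 and 21 tags at P0 and no peak at P8, and Dcn, a matrix proteoglycan, 29 and 23 tags at P0 and 8 and 10 at P8. Col1a1, the main collagen of bone and skin, had 22 and 17 tags at P0 and 18 and 23 at P8, and Col3a1 14 and 11 against 12 and 14. As deposited, 5 of the 7 were lower at P8 without overlap and 0 higher, against 89.2% and 0.576% of all genes with an end peak. Rescaling, which raises P8 against P0 at every gene, left Pdgfra and Dcn lower without overlap, put Col1a1 and Col3a1 higher without overlap and left the other 3 (Col1a2, Thy1 and S100a4) with overlap. Among all such genes 73.7% were lower and 2.81% higher without overlap on that scale.

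The peaks at the ends of the nearest genes were a readout that the rule had not used, since the sites lay more than 1 kb from any end. Of the 1169 genes, 76.0% and 73.9% carried a peak no more than 1 kb from an end in P0-A and P0-B, and 67.2% and 69.0% in P8-A and P8-B. The P0 mean was 74.98% ± 1.51 (SD, n = 2). The P8 mean was 68.1% ± 1.33 (SD, n = 2), with no overlap between the passages. The difference was −6.89 percentage points (exact two-sided permutation test, p = 0.333), and with 2 libraries on each side no p below 0.333 can arise. Among all protein-coding genes the difference was −6.31 percentage points. Genes beside P8 only intergenic sites thus had fewer peaks at their ends in the P8 libraries, as did genes at large. Of the 1169, 762 (65.2%) had an end peak in all 4 libraries, 47 (4.02%) in the pair of P0 libraries alone, and 1 (0.0855%) in the pair of P8 libraries alone. Among all protein-coding genes these shares were 58.8%, 4.02% and 0.102%, so the genes with peaks in 1 passage alone were about as frequent as at large. The 1 gene was Slfn2, of the Schlafen family, with 13 and 15 tags at its ends in P8-A and P8-B and 2 P8 only intergenic sites, the nearer at 19203 bp.

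The surroundings of the sites were counted as well. Only a site's own peaks were left out, so the peaks of other P8 only intergenic sites close by entered the count, and these are present at P8 and absent at P0 by the rule. The counts are therefore a description. Within 10 kb there were 1.65 and 1.33 peaks per site in P0-A and P0-B and 1.26 and 1.29 in P8-A and P8-B, a difference of −0.222 peaks per site. The order turned when each library was scaled to its number of peaks, to 1.15 and 1.12 per 100000 peaks at P0 and 1.42 and 1.30 at P8, a difference of 0.229. Around P0 only intergenic sites the scaled difference was likewise above 0, at 0.150, and around sites with peaks in all 4 libraries it was −0.242. Within 50 kb it was 0.245 around the P8 only, 0.713 around the P0 only and −0.773 around the sites of all 4 libraries, so a value above 0 was not particular to the P8 only sites.

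By the same values that the rule used, the nearest other site of any kind was itself P8 only, with peaks in both libraries, for 113 of the 1363, or 8.29% (6.94 to 9.87%), against 2.14% (2.03 to 2.26%) around all intergenic sites and 1.29% (1.09 to 1.52%) around P0 only ones. It had a peak in a single P8 library only for 25.1% (22.9 to 27.5%), against 11.4% (11.2 to 11.7%) around all intergenic sites. P0 only intergenic sites neighboured other sites in both P0 libraries only in 21.0% (20.3 to 21.8%) of cases, against 16.8% (16.5 to 17.1%). The median distance to the nearest site was 1565 bp for the P8 only and 2531 bp for the P0 only sites. Whether neighbouring sites are parts of 1 open stretch was not tested.

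The sites were spread over all chromosomes, from 34 on chromosome 19 to 95 on chromosome 1, and the share of intergenic sites they made up was highest on X. There 59 of 1833 were P8 only, or 3.22% (2.50 to 4.13%), against a range over the autosomes from 1.77% (1.39 to 2.24%) on chromosome 4 to 2.81% (2.27 to 3.47%) on chromosome 12. The sites on X were farther from P0 peaks, 26590 bp at the median against 4409 bp on autosomes, and 21 of the 59 (35.6%) had none within 50 kb against 6.98% of the 1304 on autosomes. Of the 10 sites farthest from any P0 peak 8 were on X. They were no stronger, with medians of 10 and 9 tags on X and 10 and 10 on autosomes.

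**Figure D5:**
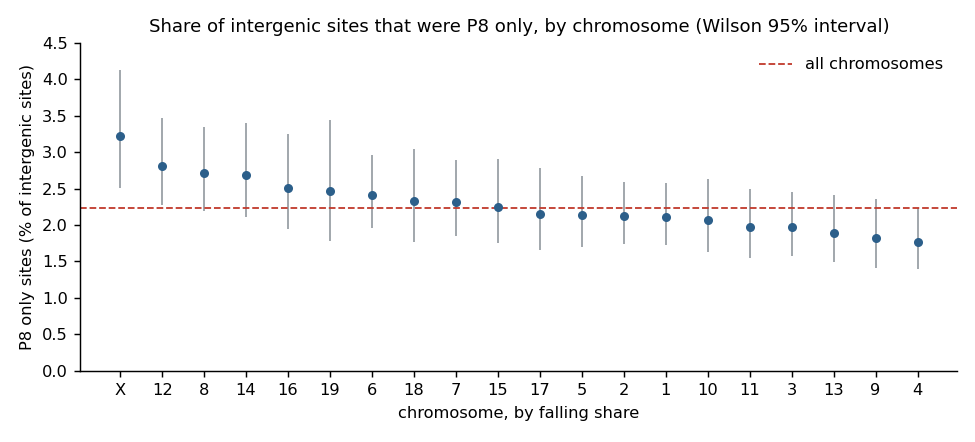
Share of intergenic sites that were P8 only on each chromosome (points, in percent) with the Wilson 95% interval (lines) and the share over all chromosomes (2.23%, dashed), in falling order. X is highest at 3.22% and chromosome 4 lowest at 1.77%.

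The local background and the pileup on X moved with passage. At sites of any position with peaks in all 4 libraries, the median background on X was 2.19 and 1.74 tags in P0-A and P0-B, inside the autosomes' ranges of 2.13 to 2.75 and 1.66 to 2.16. In P8-A and P8-B it was 1.06 and 1.09 tags, below every autosome (1.29 to 1.61 and 1.35 to 1.68). The median pileup at the same sites on X was 30 and 26 tags at P0, at the top of the autosomes' ranges (28 to 30 and 23 to 26). In P8-A it was 15 tags, at the bottom of their range (15 to 17), and in P8-B 16 tags, below it (17 to 19). The part of either value in the share on X was not tested.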

How the data were processed

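The authors used Bowtie2 to align the paired-end ATAC-seq reads and MACS2 to call peaks library by library, and per the submitters' processing notes the build was mm10. Deposited for each peak were the pileup at its summit (signal, in tags, not scaled for depth), the fold enrichment over the local background (a ratio) and the −log10 of its p-value. In the P0 table the header of the p column is a spreadsheet error, and the column was identified by its place and by values above the q column in every row. A further deposited table holds the authors' own DiffBind comparison, with log2 fold changes, p-values and FDR, and was not used. The number of columns of single libraries left unused was 0.

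Peaks overlapping by 1 bp were merged over the 4 libraries and placed against 21631 protein-coding genes of RefSeq (GRCm38.p6). Local background was computed from pileup and fold enrichment. Only 35 peaks had the same limits in both P8 libraries, so these were not copies. Percentages carry 95% Wilson intervals. Shares of genes with end peaks were compared between passages by exact permutation over libraries, and neighbouring peaks were counted without a test, since they draw in part on the values of the rule. Read counts per site and total depth were not used here, so the sites themselves were not tested. The members and the 19 gene lists were chosen with earlier results of these data known, some list genes being named by the study on these samples. Genes named were those nearest to at least 4 sites, to the 12 sites with the highest mean fold enrichment, up to 4 per list, those beside the longest groups and those at the limits of the rule; others are said to be chosen after values were seen. Sites at high background, close groups, microRNA neighbours, Slfn2, sequence repeats and nearest-site patterns were also looked at after values were seen. Some sites are not reported here by name. Merging and placing were tested on simulated data. Figures were drawn with matplotlib 3.10.9, and values computed with pandas 2.3.3, numpy 2.4.6 and scipy 1.17.1 under Python 3.11.15.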

Additional observations from a re-analysis of the deposited data

How the results depend on the processing

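The number of P8 only intergenic sites, 1363, stayed within 1.5 times under 8 other settings and without P0-B. It ranged from 1574 to 5467 with 1 library left out, which by construction loosens the rule. A similar number did not mean the same sites. With only peaks of −log10 p of at least 5, 1396 sites met the rule, and 1092 had the same limits as before. With merging within 100 bp 1134 of 1370 did, and with genes of every biotype 1102 of 1378. With a −log10 p of at least 5 in both P8 libraries the median pileup in P8-A was 11 tags, and the peak widths were 135 and 132 bp. Genes of the lists with a site numbered 59 of 345 (17.1%, against 5.404% of all protein-coding genes), or 94 with both flanking genes and 28 within 50 kb (2133 and 754 of all 21631). List genes were also more often nearest to P0 only intergenic sites than the 24.7% of all protein-coding genes. The share ran from 25% of macrophage and blood genes to 93.3% of chondrocyte factors. A raised share of list genes was therefore not particular to the P8 only sites. Within 3 kb of gene ends the difference in end peaks was −4.62 percentage points (−6.05 over all genes), a window that takes in 109 of the sites themselves and so is not independent of the rule, and within 1 kb without 1 library it ran from −7.96 to −5.82. Peaks around the sites differed by −1.75 per site within 50 kb, by 0.229 per 100000 peaks of the library, which turned the direction, and from −0.382 to −0.0624 without 1 library. Rescaling pileups at gene ends to the shallowest library, chosen after seeing the data, turned the P8 minus P0 difference from −3.5 to 6.09 tags at Fos, from −9 to 1.95 at Ier2, from −4 to 3.82 at Col1a2 and from −10 to 0.198 at S100a4, and turned none of the other 9 genes or 6 marker sums so rescaled. Motifs over whole sites were not run, since no genome was used. No paired analysis was possible because the peak names carry no replicate number that matches the labels. Depth limits what a missing peak means, since each library's faintest peaks held 6 tags.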
